A study of Homo sapiens with 51 samples.

Results

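These results concern 34 genes of cholesterol and fatty acid synthesis, out of 25421 gene symbols counted, in human pancreatic ductal adenocarcinoma (PDA) cell lines. The genes were listed because SCD, which encodes stearoyl-CoA desaturase, had a lower level in PANC1 cells after lentiviral transduction than in untreated PANC1 cells. The question was whether the rest of the sterol and fatty acid pathway was lower with it, and in which lines. All 34 symbols were found, and all 34 passed the filter on low counts in every fit. In PANC1, the members' median log2 difference between cells transduced with a control virus and untreated cells was -0.79. For 19 of the 34, all 12 transduced libraries lay below all 3 untreated ones, as was so for 2% of genes tested. In KP4 and PK45H, given the same virus, the medians were 0.00149 and 0.136. No member passed the test there, where 0% and 0.00736% of all genes tested did. Because the members were chosen for SCD in PANC1, every PANC1 value set against untreated PANC1 cells is a description without a test.

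Cells make fatty acids from acetyl-CoA, which ATP citrate lyase (ACLY) makes from citrate and acyl-CoA synthetase short chain family member 2 (ACSS2) from acetate. Acetyl-CoA carboxylase (ACACA) and fatty acid synthase (FASN) build palmitate with reducing power from malic enzyme (ME1). Elongases and desaturases lengthen it and add double bonds. Cholesterol is built from acetyl-CoA through mevalonate and squalene. Both routes are controlled by the SREBP transcription factors, encoded by SREBF1 and SREBF2, which are escorted to the Golgi by SCAP and held in the endoplasmic reticulum by INSIG proteins when sterols are plentiful. SREBPs bind sterol response elements, usually beside sites for NF-Y (the CCAAT box) and SP1 (the GC box). Lipid synthesis is raised in many carcinomas, pancreatic ones included.

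KP4, PANC1 and PK45H were each sequenced in 5 groups of 3 libraries: untreated cells, cells transduced with a lentivirus for the open reading frame of mCherry (a red fluorescent protein used as control) or of OVOL2 (a zinc finger transcription factor), and cells given either virus together with one for M2rtTA, the transactivator of tetracycline-inducible systems. HPAFII and PATU8988S were sequenced untreated only, which made 17 groups and 51 libraries. Cells were infected at a multiplicity of 2 with polybrene (8 µg/ml). A day later, 2.5 µg/ml puromycin and 0.6 µg/ml doxycycline were added, and RNA was taken after 6 days in all. Whether untreated cells were given polybrene, puromycin or doxycycline is not given in the sources used here, so that in any comparison with untreated cells the virus and these agents cannot be told apart. Libraries were made by PLATE-seq, which counts 3′ ends of transcripts from pooled, barcoded wells, here from 100 ng of total RNA. The promoter driving the open reading frames is not given in the sources used here. The labels speak of triplicates and name no separate cultures, so p-values measure only the spread between these samples, which may be technical. Levels are CPM, the counts of a library scaled to a common total, with TMM scaling over all libraries.

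Libraries held 1165399 to 7490556 counts over 15653 to 18817 genes, and 24.4% to 37.04% of counts were mitochondrial. HPAFII replicate 2 was the smallest, at 1165399 counts. All lines carried keratin RNA, with KRT8 at 87.5 to 2910 CPM over the 51 libraries and KRT18 at 306 to 4320 CPM, while PTPRC, PECAM1, CD3E and ALB, markers of blood, endothelial and liver cells, reached at most 2.5, 8.02, 1.94 and 1.27 CPM. The counts assigned to OVOL2 averaged 1.12, 1.13 and 1.25 CPM in the mCherry groups of KP4, PANC1 and PK45H and 1.16, 0.886 and 1.47 CPM in their OVOL2 groups. With M2rtTA, they averaged 0.538, 0.851 and 1.11 CPM with mCherry and 4.98, 2.15 and 4.52 CPM with OVOL2. Whether these counted 3′ ends lie in the transduced reading frame is not given in the sources used here, so without M2rtTA this count does not check the labels. EPCAM, an epithelial surface protein, averaged 155 to 249 CPM in the 6 OVOL2 groups and 28.8 to 47.7 CPM in the mCherry and untreated groups of these lines. The share of all counts taken by the 34 members was 0.1778% to 0.1965% in untreated PANC1 libraries and 0.06962% to 0.09607% in the 12 transduced ones. It was 0.07714% to 0.07771% in untreated KP4 and 0.06766% to 0.08608% in transduced KP4, and 0.07091% to 0.08243% and 0.0713% to 0.1023% in PK45H.

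Sequences upstream of 5 members that the values below turn on are shown first: SCD, the gene that prompted the list, DHCR7 and INSIG1, whose levels over the 17 groups were most like it among the members, HMGCS1, which rose with OVOL2, and FDPS, which fell with OVOL2. Each is the part of the 250 bases before the RefSeq start (GRCh38.p14) that lies in no GENCODE 29 exon, on the gene's strand, 5′ to 3′, with capitals for each CCAAT box (CCAAT or ATTGG) and GC box (GGGCGG or CCGCCC).
SCD, chr10:100346983-100347123, plus strand: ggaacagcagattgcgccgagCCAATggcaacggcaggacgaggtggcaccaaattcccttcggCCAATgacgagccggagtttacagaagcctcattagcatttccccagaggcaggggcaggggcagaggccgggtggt
DHCR7, chr11:71448436-71448643, minus strand: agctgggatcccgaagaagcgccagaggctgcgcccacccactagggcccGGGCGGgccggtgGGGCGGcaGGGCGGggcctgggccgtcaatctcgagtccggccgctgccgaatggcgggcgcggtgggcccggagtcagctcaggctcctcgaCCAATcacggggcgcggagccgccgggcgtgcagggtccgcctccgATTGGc
INSIG1, chr7:155297628-155297775, plus strand: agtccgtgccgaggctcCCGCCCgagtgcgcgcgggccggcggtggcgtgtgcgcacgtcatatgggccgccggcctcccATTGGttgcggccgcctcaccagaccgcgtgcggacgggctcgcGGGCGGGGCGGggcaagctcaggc
HMGCS1, chr5:43313513-43313662, minus strand: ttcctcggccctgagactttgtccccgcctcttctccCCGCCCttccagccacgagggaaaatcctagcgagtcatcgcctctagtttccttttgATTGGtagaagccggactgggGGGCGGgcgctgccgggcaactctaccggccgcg
FDPS, chr1:155308616-155308747, plus strand: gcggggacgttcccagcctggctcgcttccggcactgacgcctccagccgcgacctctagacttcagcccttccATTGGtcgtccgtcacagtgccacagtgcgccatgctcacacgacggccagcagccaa
No CCAAT box overlapped a GC box in them, and a pair of GC boxes in INSIG1 shared a base.

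Of the 34 members, 30 had an upstream sequence of 250 bases in RefSeq, searched on both strands. A CCAAT box was present in 19 of the 30 (63.3%), against 33.0% of 27305 promoters and 35.3% of the 10429 whose gene was tested in PANC1. GC boxes were present in 27 (90.0%), against 42.3% of all and 65.9% of tested genes. The sterol response element TCACNCCAC was found in 1 member, SREBF2 (3.33%, against 0.875% of all promoters and 0.853% of tested genes). CCGTTA, the core bound by OVOL proteins, was found in 1, MVK (3.33%, against 2.52% of all and 3.23% of tested genes). A match is a string of letters, not a site shown to be bound. FDPS, which fell with OVOL2, and HMGCS1, which rose, both held CCAAT boxes.

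SCD introduces the double bond that turns stearate into oleate, and its gene lies on chromosome 10, from 100347124 to 100364834 on the plus strand (GENCODE 29). In the 3 untreated PANC1 libraries SCD stood at 368, 361 and 277 CPM. With mCherry it stood at 75.4, 73.6 and 75.0 CPM, with OVOL2 at 62.3, 51.4 and 55.5 CPM, with mCherry and M2rtTA at 64.7, 68.4 and 81.2 CPM, and with OVOL2 and M2rtTA at 58.0, 59.2 and 64.6 CPM. The 12 transduced libraries lay within 51.4 to 81.2 CPM, none reached the lowest untreated value, and the log2 differences were -2.15, -2.54, -2.22 and -2.42 in that order of groups. In bulk RNA, fewer cells with a high level and a lower level per cell cannot be told apart.

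The other genes of fatty acid synthesis were uneven in PANC1. FASN, which makes palmitate, was at 311, 187 and 212 CPM untreated and at 93.6, 43.1 and 78.3 CPM with mCherry. FASN reached 78.7, 73.8 and 75.1 CPM with OVOL2, 76.3, 67.4 and 65.9 CPM with mCherry and M2rtTA, and 64.1, 64.7 and 72.6 CPM with OVOL2 and M2rtTA. No transduced library overlapped the untreated ones, and the log2 difference was -1.71 for mCherry and -1.77 for OVOL2 with M2rtTA. ACLY had 45.7 to 55.002 CPM untreated and 27.0 to 42.9 CPM transduced, again without overlap, a smaller difference (-0.62 with mCherry). ACACA had 18.4 to 26.4 CPM untreated and 9.68 to 17.5 CPM with mCherry (-0.78), without overlap. With mCherry and M2rtTA, ACACA reached 22.1 CPM and overlapped the untreated libraries. ACSS2 (-0.15) and ME1 (-0.06) overlapped between untreated and mCherry libraries. The genes at acetyl-CoA thus differed by less than FASN in these libraries.

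Among desaturases and elongases, FADS2, the delta-6 desaturase of polyunsaturated fatty acids, stood apart from the other lines. It was at 71.3, 34.6 and 62.9 CPM in untreated PANC1 and at 14.0, 9.28 and 10.7 CPM with mCherry, a log2 difference of -2.30. FADS2 was at 4.03, 1.15 and 5.64 CPM with OVOL2 (-3.91), at 12.9, 11.6 and 20.6 CPM with mCherry and M2rtTA (-1.89) and at 3.65, 1.29 and 3.29 CPM with OVOL2 and M2rtTA (-4.37). Untreated PANC1 libraries were the high ones, and the OVOL2 libraries lay below every mCherry library. FADS1, the delta-5 desaturase, had 185 to 203 CPM untreated and 44.6 to 129 CPM transduced. FADS1 and FADS2 are neighbours on chromosome 11 whose GENCODE 29 models overlap by 29694 bases on opposite strands, FADS2 also contains FEN1, and the counting strand is not stated, so reads of these genes may be split between them. In these models 9 members overlap another protein-coding gene: ACACA, ACAT2, ACSS2, CYP51A1, FADS1, FADS2, MVK, SREBF1 and TM7SF2. The same limit may hold for each of them. ELOVL5 (-0.21 with mCherry) overlapped between untreated and transduced libraries. ELOVL6, an elongase of saturated fatty acids, had the only positive difference with mCherry (1.30), set by replicate 1 at 53.11 CPM (236 counts), where the next library of the group had 6.614 CPM.

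In the SREBP control group, INSIG1, which retains SREBPs in the endoplasmic reticulum and is itself an SREBP target, was at 49.1, 61.3 and 41.7 CPM in untreated PANC1. It was at 19.8, 16.964 and 19.8 CPM with mCherry, 22.8, 22.8 and 22.1 CPM with OVOL2, 14.0, 10.3 and 15.8 CPM with mCherry and M2rtTA, and 18.3, 19.4 and 20.9 CPM with OVOL2 and M2rtTA. Every transduced library was under the lowest untreated one, and the log2 difference was -1.41 with mCherry. SREBF1, which encodes the SREBP tied most to fatty acid synthesis, was at 28.972, 24.4 and 32.8 CPM untreated and at 16.2, 14.6 and 12.5 CPM with mCherry. SREBF1 was at 9.67, 12.9 and 11.7 CPM with OVOL2, 15.3, 11.2 and 11.8 CPM with mCherry and M2rtTA, and 14.6, 15.5 and 12.4 CPM with OVOL2 and M2rtTA. The SREBF1 groups did not overlap either (-0.97 with mCherry). SREBF2, the SREBP tied to sterol synthesis, was at 17.9, 6.84 and 13.8 CPM untreated, 10.8, 6.23 and 9.19 CPM with mCherry, 9.40, 8.99 and 6.24 CPM with OVOL2, 10.01, 7.94 and 5.40 CPM with mCherry and M2rtTA, and 10.5, 8.32 and 8.92 CPM with OVOL2 and M2rtTA. Untreated and transduced SREBF2 libraries overlapped, as did those of SCAP (-0.22 with mCherry) and INSIG2 (-0.24).

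The mevalonate steps and the sterol steps had role medians of -0.859 and -0.949 with mCherry in PANC1. Lanosterol synthase (LSS), which closes the sterol rings, had 15.5 to 19.2 CPM untreated and 1.95 to 7.79 CPM transduced (-1.71 with mCherry). ACAT2, the cytosolic thiolase that starts the route, had 51.05 to 60.4 CPM untreated and 14.6 to 33.0 CPM transduced (-1.66). DHCR7, which reduces 7-dehydrocholesterol to cholesterol, was at 117, 156 and 106 CPM untreated, 34.2, 48.1 and 55.1 CPM with mCherry, and at most 80.8 CPM in any transduced library (-1.45). These 3 genes thus separated untreated from transduced PANC1 without overlap. IDI1, an isomerase of the isoprenoid precursor, differed by -1.26, FDPS, the farnesyl diphosphate synthase, by -0.94, MSMO1, a sterol C4 oxidase, by -1.29, TM7SF2, a sterol C14 reductase, by -1.27, and EBP, a sterol isomerase, by -1.07.

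The sterol enzymes did not all differ by as much. HMGCS1, which makes the precursor of mevalonate, was at 6.56, 7.29 and 11.2 CPM untreated, 6.53, 6.23 and 4.96 CPM with mCherry and 8.32, 8.30 and 8.86 CPM with OVOL2. With M2rtTA, HMGCS1 was at 6.67, 5.62 and 6.65 CPM with mCherry and 6.82, 5.02 and 8.22 CPM with OVOL2. The HMGCS1 libraries with mCherry reached 6.53 CPM, just under the lowest untreated one at 6.56 CPM (-0.47). The other transduced groups overlapped the untreated one (0.06 with OVOL2). SQLE, squalene epoxidase, was at 38.5, 50.6 and 40.8 CPM untreated and at 29.9, 33.9 and 32.2 CPM with mCherry, 35.7, 29.7 and 27.0 CPM with OVOL2, 20.7, 21.9 and 25.1 CPM with mCherry and M2rtTA and 58.5, 25.5 and 31.0 CPM with OVOL2 and M2rtTA. Replicate 1 of that last SQLE group was above every untreated library, and the other transduced libraries were below all of them. CYP51A1, the lanosterol demethylase (-0.21), and HSD17B7, a sterol ketone reductase (-0.46), overlapped as well.

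Over all 34 members, 11 were at least 2-fold lower with mCherry than untreated in PANC1, where 1.96% of the genes tested were. The count was 16 with mCherry and M2rtTA (2.41% of genes), 12 with OVOL2 (5.96%) and 16 with OVOL2 and M2rtTA (7.82%). The members' medians were -0.79, -0.913, -0.703 and -0.881, beside medians over all genes of 0.00439, -0.00184, 0.0161 and 0.0167. For 19 members all 12 transduced PANC1 libraries lay below all 3 untreated ones (2% of genes tested), and for 0 members they all lay above (1.03%). The 19 were ACLY, FASN, SCD, FADS1, FADS2, SREBF1, INSIG1, ACAT2, PMVK, IDI1, FDPS, FDFT1, LSS, TM7SF2, MSMO1, EBP, SC5D, DHCR7 and STARD4. These counts rest on the contrast from which the list came, and the 4 comparisons share the 3 untreated libraries. KRT19, a duct keratin, and KRT18 were also lower in PANC1 with mCherry (236 and 1169 CPM, means of 3) than untreated (471 and 1602 CPM). KRT8 (778 CPM with mCherry and 827 CPM untreated) and EPCAM (40.6 and 35.2 CPM) overlapped between these groups. The part of these markers in the lipid gene values was not tested.

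**Figure D1:**
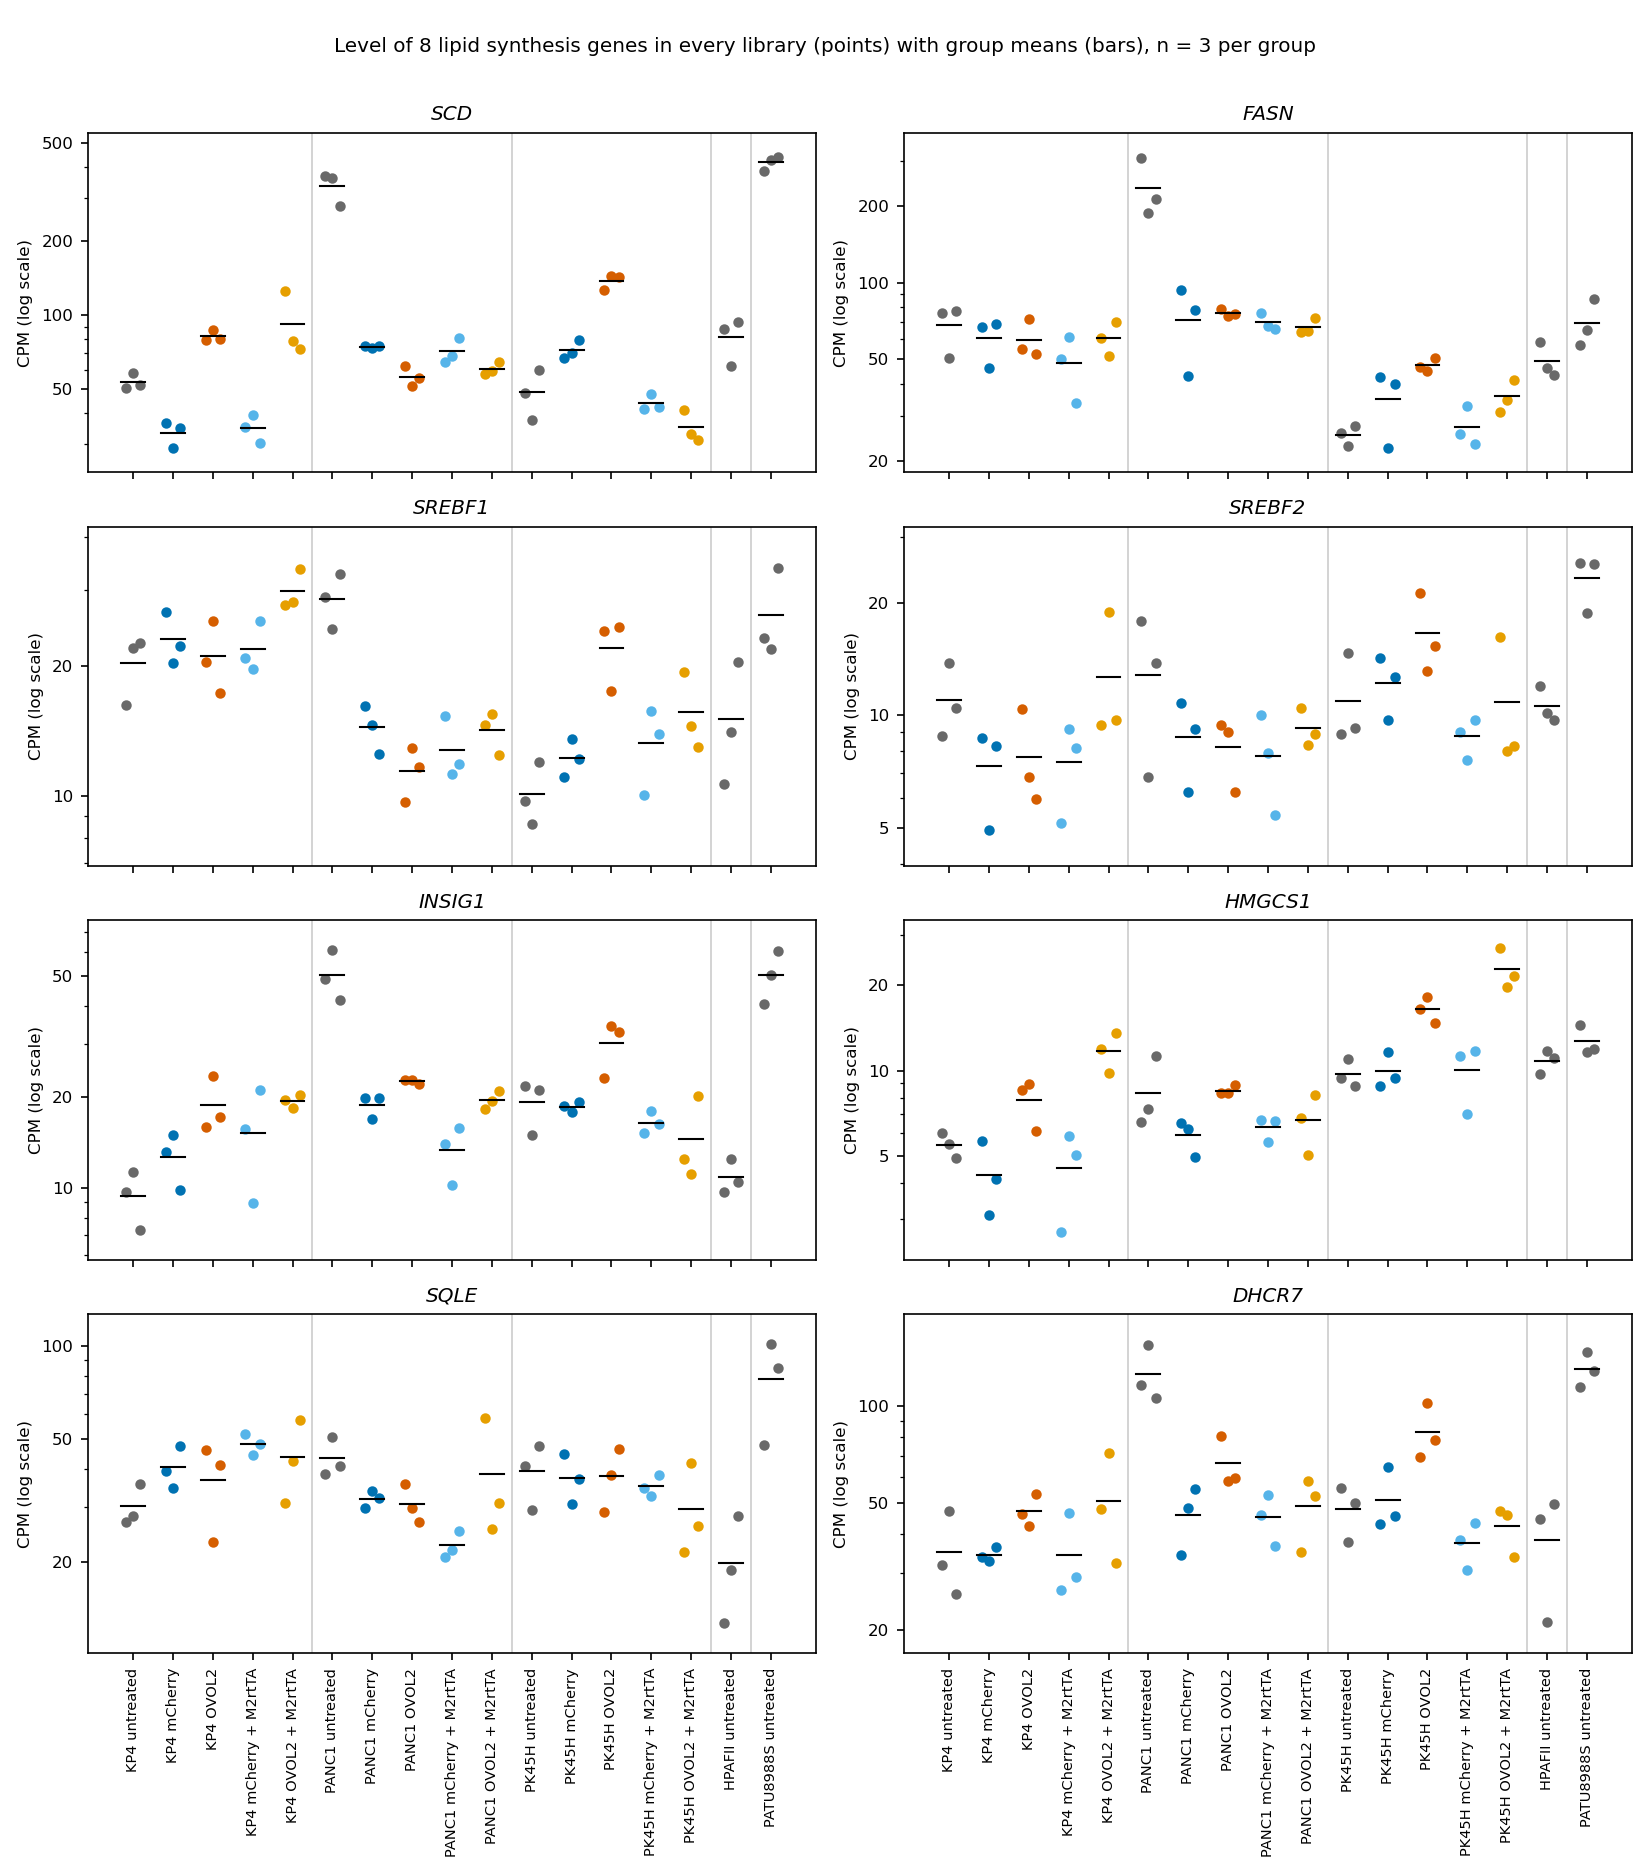
Level of 8 members (CPM, log axis) in every library, by group along the horizontal axis, where points are libraries and bars are means of 3. Untreated PANC1 libraries of SCD lie at 277 to 368 CPM and the 12 transduced ones at 51.4 to 81.2 CPM, a gap that neither KP4 nor PK45H has.

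**Figure D2:**
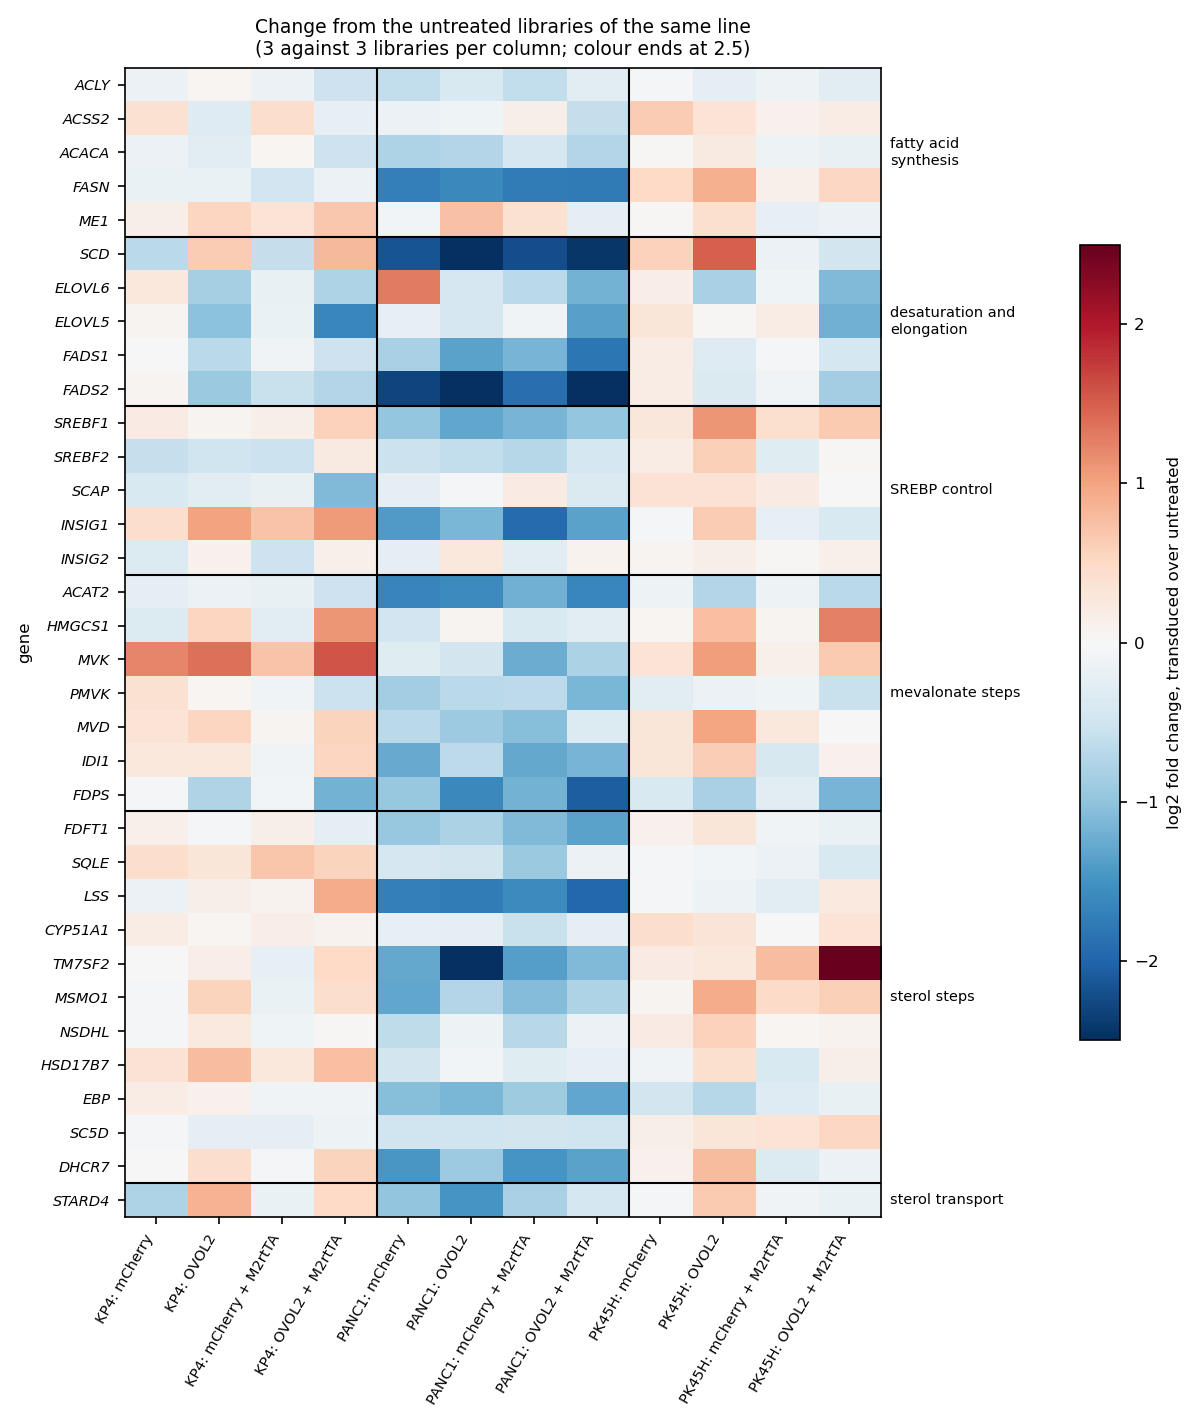
Fitted log2 difference of each transduced group from the untreated libraries of its line (columns) for the 34 members grouped by role (rows), with blue for lower and red for higher. The PANC1 columns are mostly blue, while those of KP4 and PK45H hold both colours.

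Outside PANC1 the mCherry virus was not followed by this pattern. In KP4, SCD was at 50.4, 58.5 and 51.9 CPM untreated, 36.4, 28.8 and 34.7 CPM with mCherry and 35.2, 39.3 and 30.3 CPM with mCherry and M2rtTA. All 6 mCherry libraries of KP4 lay below the untreated ones, but neither difference passed the test across all genes (log2 -0.68, SE 0.19, adjusted p = 0.499, and -0.60 with M2rtTA, adjusted p = 0.353). In PK45H, SCD was at 48.5, 37.4 and 60.2 CPM untreated, 67.3, 70.2 and 79.0 CPM with mCherry and 41.5, 47.7 and 42.2 CPM with mCherry and M2rtTA. There the mCherry libraries were the high ones (log2 0.59, SE 0.17, adjusted p = 0.39), and with M2rtTA the groups overlapped (-0.14, adjusted p = 0.956).

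No member passed the test between mCherry and untreated cells in KP4, without M2rtTA (0% of genes tested passed) or with it (0%), or in PK45H, without (0.00736%) or with it (0.0294%). At an unadjusted p under 0.05 there were 2 and 4 members in KP4 and 6 and 4 in PK45H, by edgeR. The share of all genes under this unadjusted threshold is not given here, so these counts have no background beside them. None of the 34 was at least 2-fold lower in any of these 4 comparisons, where 1.96%, 2.19%, 3.02% and 1.7% of genes were. The member medians with M2rtTA were -0.0833 in KP4 and -0.0902 in PK45H. No member had all 12 transduced KP4 libraries below (0.769% of genes) or above (0.432%) all 3 untreated ones. In PK45H, FDPS alone lay below (0.663% of genes), and none lay above (0.434%). FDPS had 46.5 to 48.7 CPM in untreated PK45H and 18.5 to 42.8 CPM in the transduced libraries. Whether the PANC1 difference itself departs from that of the other lines was not tested, because it chose the members.

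Untreated PANC1 had the highest mean of these 3 lines for 26 of the 34 members, and the lowest for 5. Among the mCherry groups it had the highest for 10 and the lowest for 12. FASN shows this order, with means of 68.2 CPM in KP4, 237 CPM in PANC1 and 25.2 CPM in PK45H untreated, and 60.7, 71.7 and 34.98 CPM with mCherry, where KP4 and PANC1 overlapped. INSIG1 was at 9.43, 50.7 and 19.3 CPM untreated and at 12.7, 18.9 and 18.6 CPM with mCherry, where the PANC1 and PK45H libraries overlapped. SREBF1 was at 20.3, 28.7 and 10.1 CPM untreated and at 23.1, 14.4 and 12.3 CPM with mCherry, so that KP4 and not PANC1 was then the high line. The untreated and mCherry PANC1 libraries are among those that chose the list, so these orders of lines are a description. The orders were not counted over all genes, so the member counts have no background beside them.

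OVOL2 against mCherry, with both groups transduced, was tested in each line. Without M2rtTA, 5 members passed in KP4 (6.82% of genes tested did), 1 in PANC1 (5.08%) and 4 in PK45H (8.39%). With M2rtTA, 8 passed in KP4 (22.4% of genes), 7 in PANC1 (13.9%) and 4 in PK45H (15.9%). Member medians lay between 0.0147 and 0.234, beside medians over all genes of -0.0202 to 0.0192. Leaving out 1 library at a time gave 1 to 4, 0 to 1 and 1 to 3 calls without M2rtTA, lowest without KP4 OVOL2 replicate 2, PANC1 mCherry replicate 2 and PK45H mCherry replicate 1 or OVOL2 replicate 3, and 5 to 7, 3 to 5 and 4 to 5 with it, lowest in PANC1 without mCherry replicate 1 of that arm. The transduced PANC1 libraries are among those whose SCD level prompted the list. In PANC1 the mitochondrial share of counts moved with OVOL2, from 25.87% to 30.22% with mCherry to 32.17% to 32.76% with OVOL2, and with M2rtTA from 28.54% to 28.9% to 33.43% to 34.99%, without overlap in either arm. In KP4 and PK45H these shares overlapped, and the part of this share in the PANC1 calls was not tested. EPCAM and vimentin (VIM), a mesenchymal filament, moved beside these genes. VIM averaged 1804, 2799 and 224 CPM with mCherry in KP4, PANC1 and PK45H and 385, 670 and 91.3 CPM with OVOL2. With M2rtTA, VIM averaged 1555, 2669 and 237 CPM with mCherry and 498, 690 and 176 CPM with OVOL2. KRT19 fell with OVOL2 in PANC1, from means of 236 to 112 CPM, and with M2rtTA from 240 to 159 CPM. In PK45H, KRT19 rose from 83.9 to 187 CPM, and with M2rtTA from 68.6 to 257 CPM. KRT19 in KP4 and KRT8 in PANC1 overlapped in both arms. The part of these markers in the lipid gene changes was not tested.

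SCD had the largest called rise of any member in KP4. It went from 36.4, 28.8 and 34.7 CPM with mCherry to 79.4, 87.5 and 80.0 CPM with OVOL2 (log2 1.31, SE 0.19, adjusted p = 0.00101). With M2rtTA it went from 35.2, 39.3 and 30.3 CPM to 126, 78.6 and 72.8 CPM (1.41, SE 0.19, adjusted p = 0.000141). In neither KP4 arm did the groups overlap, and both calls held in every fit that left out 1 library (adjusted p up to 0.00684 and 0.00107). In PK45H, SCD rose from 67.3, 70.2 and 79.0 CPM to 127, 144 and 144 CPM without M2rtTA (0.91, SE 0.17, adjusted p = 0.00422, and up to 0.0236 without 1 library), but with M2rtTA it had 41.5, 47.7 and 42.2 CPM with mCherry and 41.2, 32.9 and 31.0 CPM with OVOL2 (-0.32, adjusted p = 0.238). PANC1 SCD had 73.6 to 75.4 CPM with mCherry and 51.4 to 62.3 CPM with OVOL2, which did not overlap yet did not pass (-0.39, SE 0.14, adjusted p = 0.134), nor did the M2rtTA arm (-0.20, adjusted p = 0.388). The OVOL2 effect on SCD thus differed between the 3 lines in both arms. The transduced PANC1 libraries are among those whose SCD level prompted the list. The PANC1 values of SCD and this difference between lines are therefore a description without a test.

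ELOVL5, FADS1 and FADS2 act on polyunsaturated fatty acids. ELOVL5, which elongates polyunsaturated fatty acids, fell with OVOL2 and M2rtTA in all 3 lines. In KP4 it went from 11.9, 22.2 and 8.93 CPM to 5.36, 5.73 and 4.10 CPM (-1.46, SE 0.32, adjusted p = 0.00499), in PANC1 from 19.8, 16.3 and 25.8 CPM to 7.31, 10.2 and 7.28 CPM (-1.26, SE 0.27, adjusted p = 0.00594) and in PK45H from 14.0, 15.5 and 18.6 CPM to 5.86, 8.54 and 4.02 CPM (-1.38, SE 0.27, adjusted p = 0.0037). No OVOL2 library reached the lowest mCherry library of its line. In these 3 lines the call held in every fit that left out 1 library (adjusted p up to 0.0325). Without M2rtTA, ELOVL5 fell in KP4, from 22.4, 11.7 and 16.3 CPM to 9.16, 6.85 and 7.20 CPM (-1.11, SE 0.30, adjusted p = 0.0432), but lost the call in 5 of 6 fits that left out 1 library (-0.87 and adjusted p = 0.184 without mCherry replicate 1). It had -0.20 (adjusted p = 0.745) in PANC1 and -0.28 (adjusted p = 0.558) in PK45H.

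FADS1 fell in KP4 without M2rtTA, from 110, 91.8 and 113 CPM to 70.5, 57.4 and 65.1 CPM (-0.70, SE 0.14, adjusted p = 0.0107), and in PK45H from 105, 104 and 97.0 CPM to 76.0, 72.4 and 70.2 CPM (-0.51, SE 0.13, adjusted p = 0.0295). With M2rtTA, it fell in KP4 from 101, 88.4 and 103 CPM to 61.3, 70.8 and 84.0 CPM (-0.43, SE 0.14, adjusted p = 0.0442) and in PANC1 from 83.8, 83.7 and 94.7 CPM to 51.4, 44.6 and 67.2 CPM (-0.65, SE 0.17, adjusted p = 0.0217). The FADS1 groups did not overlap in any of these 4 comparisons, yet each call was lost when a library was left out, in KP4 without M2rtTA only for OVOL2 replicate 2 (adjusted p = 0.0562), and in 5, 4 and 4 of 6 such fits for the others (adjusted p up to 0.158). PANC1 without M2rtTA (-0.54, adjusted p = 0.0894) and PK45H with it (-0.39, adjusted p = 0.0654) did not pass. FADS2 fell in PANC1 with M2rtTA (-2.48, SE 0.47, adjusted p = 0.00292), from 12.9, 11.6 and 20.6 CPM to 3.65, 1.29 and 3.29 CPM, a call that held without any 1 library (adjusted p up to 0.0202). In KP4 and PK45H no transduced library exceeded 7.09 CPM.

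FDPS makes farnesyl diphosphate, the last intermediate that sterols and prenyl groups share, and it fell with OVOL2 and M2rtTA in all 3 lines. KP4 went from 28.0, 33.7 and 30.7 CPM to 13.6, 15.7 and 13.3 CPM (-1.11, SE 0.16, adjusted p = 0.000214), PANC1 from 22.2, 28.5 and 23.1 CPM to 12.4, 14.6 and 11.98 CPM (-0.88, SE 0.21, adjusted p = 0.0111) and PK45H from 35.7, 37.0 and 42.8 CPM to 23.3, 20.7 and 18.5 CPM (-0.88, SE 0.14, adjusted p = 0.00101). The groups did not overlap in any line. Leaving out 1 library kept the KP4 and PK45H calls (adjusted p up to 0.00148 and 0.0067) and lost that of PANC1 without OVOL2 replicate 3 (adjusted p = 0.0517) or mCherry replicate 2 of that arm. Without M2rtTA it fell in KP4, from 37.1, 24.9 and 34.3 CPM to 19.4, 18.1 and 20.5 CPM (-0.72, SE 0.15, adjusted p = 0.0122; 0.0575 without mCherry replicate 1, and lost also without mCherry replicate 3 or OVOL2 replicate 2), and had -0.68 (adjusted p = 0.0708) in PANC1 and -0.45 (adjusted p = 0.0732) in PK45H. FDPS has near-identical copies in the genome, and how the counting shared reads with them is not given in the sources used here.

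HMGCS1, at the head of the same route, went up. With M2rtTA it rose in KP4 from 2.69, 5.87 and 5.05 CPM to 11.9, 9.78 and 13.6 CPM (1.37, SE 0.29, adjusted p = 0.00341) and in PK45H from 11.2, 7.03 and 11.8 CPM to 27.1, 19.7 and 21.5 CPM (1.19, SE 0.20, adjusted p = 0.00148). The groups were apart in both lines, and the calls held without any 1 library (adjusted p up to 0.0151), whereas PANC1 had 0.10 (adjusted p = 0.841) and overlapping libraries. Without M2rtTA the HMGCS1 differences were 0.86 (adjusted p = 0.0914), 0.54 (adjusted p = 0.257) and 0.71 (adjusted p = 0.0566) in KP4, PANC1 and PK45H, none of which passed. HMGCS1 in KP4 was at 6.03, 5.50 and 4.91 CPM untreated, 5.64, 3.08 and 4.14 CPM with mCherry, and 8.55, 8.94 and 6.10 CPM with OVOL2, and in PK45H at 9.40, 10.9 and 8.81 CPM untreated, 8.84, 11.6 and 9.42 CPM with mCherry, and 16.5, 18.2 and 14.7 CPM with OVOL2. In both of these lines the OVOL2 libraries lay above all mCherry and untreated ones.

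MSMO1 rose without M2rtTA in KP4, from 27.6, 21.6 and 17.5 CPM to 33.4, 32.7 and 34.8 CPM (0.60, SE 0.17, adjusted p = 0.0482), and in PK45H, from 16.4, 16.3 and 25.0 CPM to 33.8, 35.3 and 38.0 CPM (0.86, SE 0.20, adjusted p = 0.0139), and with M2rtTA in KP4 (0.60, SE 0.17, adjusted p = 0.0215). PANC1 MSMO1 had 23.5 to 25.7 CPM with mCherry and 29.04 to 45.1 CPM with OVOL2, which did not overlap and did not pass (0.57, adjusted p = 0.0538). SREBF1 rose in PK45H without M2rtTA, from 11.0, 13.6 and 12.2 CPM to 24.1, 17.5 and 24.7 CPM without overlap (0.82, SE 0.23, adjusted p = 0.0389). SREBF2 passed in no comparison of OVOL2 with mCherry, with differences of -0.07 to 0.77, and neither did FASN, with -0.02 to 0.41. In KP4, where SCD rose, SREBF1, SREBF2 and FASN passed in neither arm. The MSMO1 and SREBF1 calls were each lost in 3 to 5 of 6 fits that left out 1 library (adjusted p up to 0.183 and 0.131).

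Other members of the SREBP group and 1 gene of each branch were followed in every library of KP4 and PK45H. FASN in KP4 was at 76.2, 50.7 and 77.7 CPM untreated, 67.1, 46.2 and 68.8 CPM with mCherry, 54.8, 71.9 and 52.6 CPM with OVOL2, 50.2, 61.03 and 33.8 CPM with mCherry and M2rtTA, and 60.8, 51.6 and 70.2 CPM with OVOL2 and M2rtTA. The 5 FASN groups of KP4 overlapped one another. In PK45H, FASN was at 25.7, 22.7 and 27.3 CPM untreated, 42.5, 22.5 and 39.98 CPM with mCherry, 46.5, 45.1 and 50.4 CPM with OVOL2, 25.5, 32.8 and 23.2 CPM with mCherry and M2rtTA, and 31.1, 34.7 and 41.6 CPM with OVOL2 and M2rtTA. There the OVOL2 libraries without M2rtTA lay above the mCherry ones but did not pass (0.40, adjusted p = 0.268), and with M2rtTA they overlapped. SQLE in KP4 was at 26.9, 28.03 and 35.7 CPM untreated, 39.3, 34.7 and 47.4 CPM with mCherry, 46.1, 23.2 and 41.01 CPM with OVOL2, 51.8, 44.2 and 47.9 CPM with mCherry and M2rtTA, and 30.99, 42.3 and 57.6 CPM with OVOL2 and M2rtTA, and in PK45H it was at 40.7, 29.3 and 47.5 CPM untreated, 44.7, 30.6 and 36.99 CPM with mCherry, 29.04, 38.04 and 46.3 CPM with OVOL2, 34.7, 32.8 and 38.3 CPM with mCherry and M2rtTA, and 21.4, 41.7 and 26.03 CPM with OVOL2 and M2rtTA. SQLE with OVOL2 overlapped SQLE with mCherry in both arms of both lines.

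INSIG1 in KP4 was at 9.68, 11.3 and 7.26 CPM untreated, 13.2, 14.997 and 9.90 CPM with mCherry, 15.9, 23.4 and 17.2 CPM with OVOL2, 15.7, 8.94 and 21.2 CPM with mCherry and M2rtTA, and 19.6, 18.4 and 20.2 CPM with OVOL2 and M2rtTA. In PK45H, INSIG1 was at 21.8, 14.99 and 21.1 CPM untreated, 18.7, 17.8 and 19.3 CPM with mCherry, 23.1, 34.3 and 32.8 CPM with OVOL2, 15.2, 17.9 and 16.2 CPM with mCherry and M2rtTA, and 12.5, 11.1 and 20.1 CPM with OVOL2 and M2rtTA. Without M2rtTA the OVOL2 libraries lay above the mCherry ones in both lines, without passing (0.57, adjusted p = 0.265 in KP4 and 0.66, adjusted p = 0.0875 in PK45H), and with M2rtTA they overlapped. SREBF1 in KP4 was at 16.3, 22.01 and 22.6 CPM untreated, 26.8, 20.3 and 22.3 CPM with mCherry, 20.5, 25.5 and 17.4 CPM with OVOL2, 20.8, 19.7 and 25.4 CPM with mCherry and M2rtTA, and 27.8, 28.2 and 33.6 CPM with OVOL2 and M2rtTA. In PK45H, beside the groups above, SREBF1 was at 9.73, 8.59 and 11.99 CPM untreated, 10.04, 15.7 and 13.9 CPM with mCherry and M2rtTA, and 19.4, 14.49 and 13.01 CPM with OVOL2 and M2rtTA. The SREBF1 groups in KP4 with M2rtTA did not overlap and did not pass (0.44, adjusted p = 0.11). SREBF2 in KP4 was at 8.77, 13.8 and 10.5 CPM untreated, 8.70, 4.93 and 8.28 CPM with mCherry, 10.4, 6.85 and 5.95 CPM with OVOL2, 5.16, 9.19 and 8.15 CPM with mCherry and M2rtTA, and 9.38, 18.9 and 9.73 CPM with OVOL2 and M2rtTA, and in PK45H at 8.90, 14.7 and 9.24 CPM untreated, 14.2, 9.69 and 12.6 CPM with mCherry, 21.3, 13.1 and 15.4 CPM with OVOL2, 9.01, 7.59 and 9.72 CPM with mCherry and M2rtTA, and 16.2, 8.02 and 8.28 CPM with OVOL2 and M2rtTA. The SREBF2 libraries with OVOL2 and M2rtTA in KP4 lay above their mCherry libraries without passing (0.77, adjusted p = 0.119), and the other 3 OVOL2 and mCherry pairs of these lines overlapped.

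TM7SF2 changed in opposite directions in different settings. It fell in PANC1 without M2rtTA, from 12.4, 17.6 and 12.1 CPM to 6.44, 3.69 and 6.04 CPM (-1.38, SE 0.28, adjusted p = 0.0123), and rose in PK45H with M2rtTA, from 6.35, 7.03 and 5.22 CPM to 26.7, 17.3 and 21.8 CPM (1.83, SE 0.25, adjusted p = 0.00026), without overlap in either. The difference in its OVOL2 effect between lines passed in both arms (adjusted p = 0.0345 and 0.019). Leaving out 1 library kept the PK45H call (adjusted p up to 0.00253) and lost that of PANC1 without OVOL2 replicate 2 (adjusted p = 0.0608) or mCherry replicate 2. TM7SF2 shares 16 bases with VPS51 on the same strand.

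The remaining calls were in the M2rtTA arm. In PANC1, INSIG1 rose from 14.0, 10.3 and 15.8 CPM to 18.3, 19.4 and 20.9 CPM (0.58, SE 0.18, adjusted p = 0.0473), and NSDHL, a sterol dehydrogenase, from 45.6, 41.8 and 41.5 CPM to 54.3, 68.4 and 58.9 CPM (0.53, SE 0.15, adjusted p = 0.0273), both without overlap. SQLE in PANC1 rose by 0.79 (SE 0.25, adjusted p = 0.0482), from 20.7, 21.9 and 25.1 CPM to 58.5, 25.5 and 31.0 CPM, where replicate 1 stands out and its removal left 0.36 (adjusted p = 0.231). In KP4, ACACA fell from 32.1, 29.4 and 23.3 CPM to 19.4, 17.5 and 20.2 CPM (-0.56, SE 0.17, adjusted p = 0.029), and SCAP from 4.26, 8.17 and 6.21 CPM to 3.02, 3.20 and 3.59 CPM (-0.92, SE 0.30, adjusted p = 0.0388), neither with overlap. Each of these 5 calls was lost in 4 or 5 of 6 fits that left out 1 library (adjusted p up to 0.231). Counting both arms, 27 members passed in no line without M2rtTA and 21 in none with it. The share of all genes that passed in no line was not computed, so these counts have no background beside them.

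**Figure D3:**
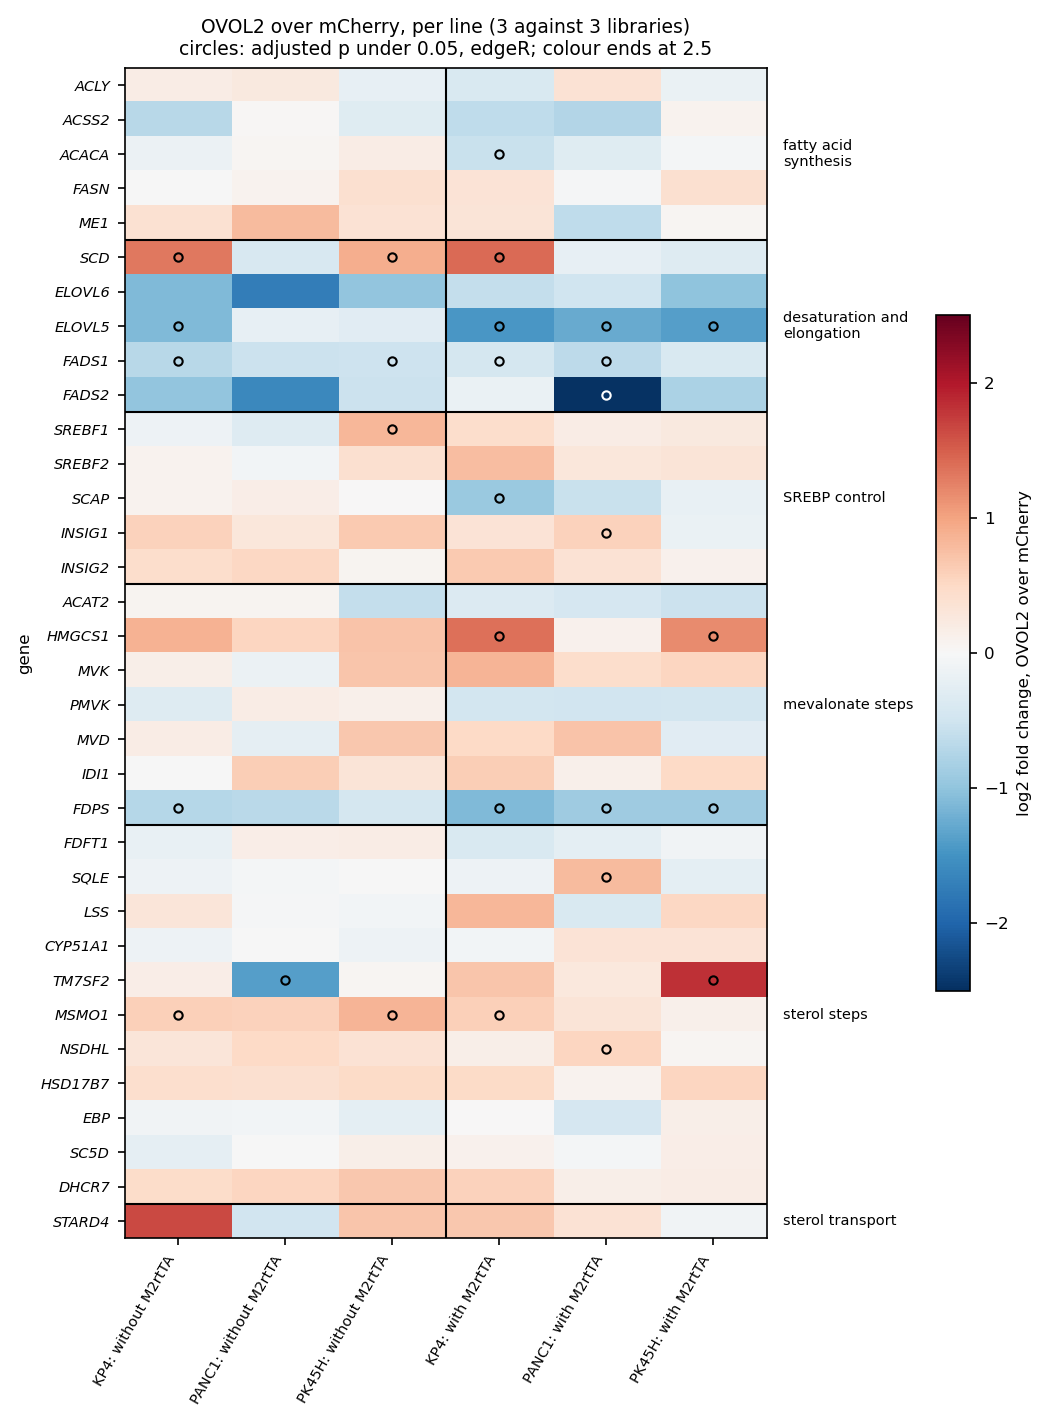
Fitted log2 difference of OVOL2 over mCherry for the 34 members (rows) in 3 lines without and with M2rtTA (columns), with circles where the adjusted p was under 0.05. ELOVL5 and FDPS carry circles in all 3 M2rtTA columns, and SCD in both KP4 columns and in PK45H without M2rtTA.

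**Figure D4:**
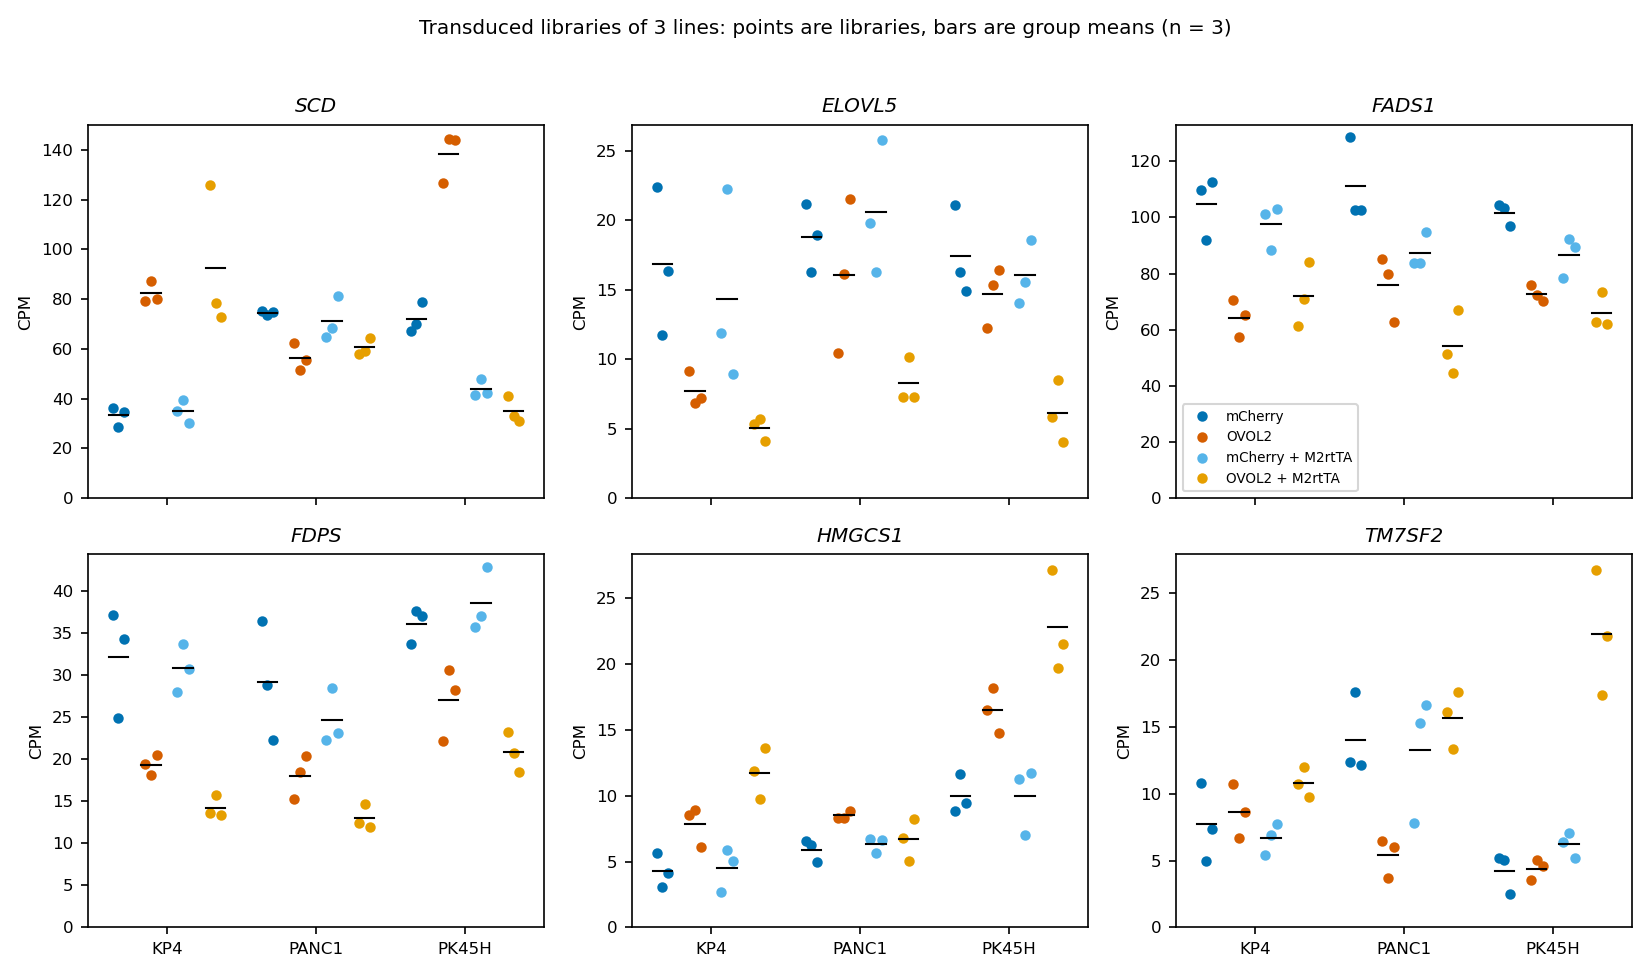
CPM (linear axis from 0) of 6 members in each transduced library of 3 lines, where points are libraries and bars are means of 3. SCD with OVOL2 lies at 127 to 144 CPM in PK45H without M2rtTA and at 31.0 to 41.2 CPM with it, and FDPS with OVOL2 and M2rtTA lies below the mCherry libraries in every line.

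The mean of the 3 lines gave more calls. Without M2rtTA 13 members passed, 8 higher and 5 lower (18.1% of genes tested passed), and with M2rtTA 16 did, 7 higher and 9 lower (32.9%). Those higher without M2rtTA were ME1 (0.53), SCD (0.63), INSIG1 (0.52), HMGCS1 (0.72), MSMO1 (0.69), NSDHL (0.41), HSD17B7 (0.45) and DHCR7 (0.58), and those lower were ELOVL6 (-1.25), ELOVL5 (-0.51), FADS1 (-0.56), FADS2 (-1.04) and FDPS (-0.60). The ELOVL6 value includes the PANC1 mCherry library with 53.11 CPM, without which it was -0.65 (adjusted p = 0.192). By role, 5 of 5 desaturation and elongation genes passed, with SCD up and the other 4 down, and 4 of 11 sterol step genes passed, all up. With M2rtTA, those higher were SCD (0.30), SREBF1 (0.29), HMGCS1 (0.88), IDI1 (0.42), TM7SF2 (0.93), MSMO1 (0.34) and NSDHL (0.24). Those lower were ACACA (-0.31), ELOVL5 (-1.37), FADS1 (-0.49), FADS2 (-1.15), SCAP (-0.56), ACAT2 (-0.43), PMVK (-0.47), which phosphorylates phosphomevalonate, FDPS (-0.96) and FDFT1 (-0.24), the squalene synthase. Without M2rtTA, HSD17B7 lost its call in 13 of 18 fits that left out 1 library, ELOVL5 in 6 and FADS2 in 1. With M2rtTA, NSDHL lost it in 13, SREBF1 in 12, ACACA in 10, FDFT1 in 7, ACAT2 in 3 and PMVK in 1 (adjusted p up to 0.156). The SCD call with M2rtTA rested on KP4 OVOL2 replicate 1 (0.20 and adjusted p = 0.0824 without it). By line, SCD with M2rtTA was 1.41 in KP4, -0.20 in PANC1 and -0.32 in PK45H, so that 2 of 3 lines had a negative difference, and PANC1 had one (-0.39) without M2rtTA too. SCD, HMGCS1, MSMO1 and NSDHL were called higher, and ELOVL5, FADS1, FADS2 and FDPS lower, over the lines in both arms, which share no libraries. The SCD means include PANC1 libraries whose SCD level prompted the list, so for SCD they are a description.

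Lines differed in the OVOL2 effect for 3 members without M2rtTA (2.74% of genes tested), SCD, SREBF1 (adjusted p = 0.0242) and TM7SF2. With M2rtTA they did so for 4 (7.56%), SCD, TM7SF2, ACLY (adjusted p = 0.0278) and HMGCS1 (adjusted p = 0.0366). Both counts include SCD, for which the difference is a description, since its PANC1 level prompted the list. The change in the OVOL2 effect brought by M2rtTA was tested within each line as well. It passed for 0 members in KP4 (1.43% of genes; 2 members at an unadjusted p under 0.05), 0 in PANC1 (0.136%; 4 members) and 2 in PK45H (1.6%), which were SCD (-1.22, SE 0.24, adjusted p = 0.0228) and TM7SF2 (1.78, SE 0.39, adjusted p = 0.0369). Of 12 fits that left out 1 library, 6 and 10 lost these calls (adjusted p up to 0.0601 and 0.111). M2rtTA with mCherry against mCherry alone, averaged over the 3 lines, gave 0 members (0.0602% of genes, by edgeR), with 6 at an unadjusted p under 0.05 and a median of -0.0822. For the member counts at an unadjusted p under 0.05, the share of all genes is not given here either.

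Lipid genes outside the list were counted as 4 groups. In PANC1 with mCherry against untreated cells, the median was 0.187 over 21 other fatty acid genes, -0.152 over 16 other sterol genes, -0.19 over 4 LXR genes (the oxysterol receptors and their targets) and -0.0871 over 11 glycerolipid genes, beside -0.79 for the members. In KP4 and PK45H, 0 genes of these groups passed against untreated cells. With OVOL2 over the 3 lines, where 18.1% of all genes passed without M2rtTA and 32.9% with it, 3 of 23 other fatty acid genes were called higher and 3 lower without M2rtTA, and 3 and 4 with it. Other sterol genes gave 2 higher and 3 lower of 16 without M2rtTA and 3 and 2 with it, LXR genes 3 and 1 of 6 and then 3 and 0, and glycerolipid genes 3 and 2 of 11 and then 2 and 0.

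HACD1, a dehydratase of fatty acid elongation, and CYB5B, an outer mitochondrial cytochrome b5, fell with OVOL2 and M2rtTA in all 3 lines. HACD1 went from 51.7 to 69.2 CPM with mCherry to 27.2 to 34.3 CPM with OVOL2 in PANC1 (-0.92, adjusted p = 0.000733), with -0.57 (adjusted p = 0.028) in KP4 and -0.99 (adjusted p = 0.000604) in PK45H. CYB5B differed by -0.67 (adjusted p = 0.00322), -0.51 (adjusted p = 0.017) and -0.68 (adjusted p = 0.00111) in KP4, PANC1 and PK45H. MYLIP, the LXR target that marks lipoprotein receptors for degradation, rose over the lines by 0.48 (adjusted p = 0.0182) and 0.83 (adjusted p = 1.59e-05), and NPC2, a lysosomal cholesterol carrier, by 0.45 (adjusted p = 0.000121) and 0.59 (adjusted p = 7.19e-07).

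Untreated lines differed widely. HPAFII and PATU8988S together against KP4, PANC1 and PK45H gave 17 members past the test, 12 higher and 5 lower (34.8% of genes tested passed), and a median of 0.312. The mitochondrial share of counts was 34.94% to 37.04% in PATU8988S, 27.26% to 33.79% in HPAFII and 25.85% to 29.9% in the other 3 lines, and its part in these values was not tested. Leaving out 1 library gave 13 (without PATU8988S replicate 2) to 18 (without HPAFII replicate 2). The untreated PANC1 libraries are among those that chose the list, so the SCD difference of 0.96, one of the 12, is a description without a test. The most certain higher were otherwise TM7SF2 (1.67, SE 0.14, adjusted p = 3.57e-07) and ACSS2 (1.43, SE 0.17, adjusted p = 1.17e-05), and the 3 most certain lower were FADS1 (-1.37, SE 0.14, adjusted p = 3.04e-06), ELOVL5 (-1.84, SE 0.21, adjusted p = 6.97e-06) and ACACA (-0.82, SE 0.13, adjusted p = 0.000209). SCD ran at 387, 426 and 442 CPM in PATU8988S and 87.9, 62.5 and 93.7 CPM in HPAFII, so these lines were far apart from each other, and PANC1 (277 to 368 CPM) lay between them. FASN ran at 56.8, 65.3 and 86.7 CPM in PATU8988S and 58.5, 46.1 and 43.4 CPM in HPAFII, overlapping each other and well below untreated PANC1. FADS1 was at 20.3 CPM in HPAFII and 112 CPM in PATU8988S, beside 104.5 CPM in KP4. ELOVL5 was low in both, at 2.59, 3.90 and 4.85 CPM in HPAFII and 7.35, 6.17 and 4.18 CPM in PATU8988S, all below the 10.1 CPM of the lowest library of the other 3 lines.

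INSIG1 ran at 40.5, 50.7 and 60.7 CPM in PATU8988S, overlapping untreated PANC1, and at 9.70, 12.5 and 10.5 CPM in HPAFII, overlapping KP4. SREBF1 ran at 23.3, 21.9 and 33.8 CPM and 10.7, 14.1 and 20.5 CPM in these lines, SREBF2 at 25.6, 18.7 and 25.4 CPM and 11.96, 10.2 and 9.70 CPM. SQLE ran at 47.6, 101 and 84.6 CPM in PATU8988S and 12.6, 18.7 and 28.0 CPM in HPAFII, and HMGCS1 at 14.4, 11.7 and 11.95 CPM and 9.70, 11.7 and 11.0 CPM. PATU8988S and HPAFII libraries were apart for SCD, INSIG1, SREBF1, SREBF2 and SQLE and touched at 11.7 CPM for HMGCS1.

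**Figure D5:**
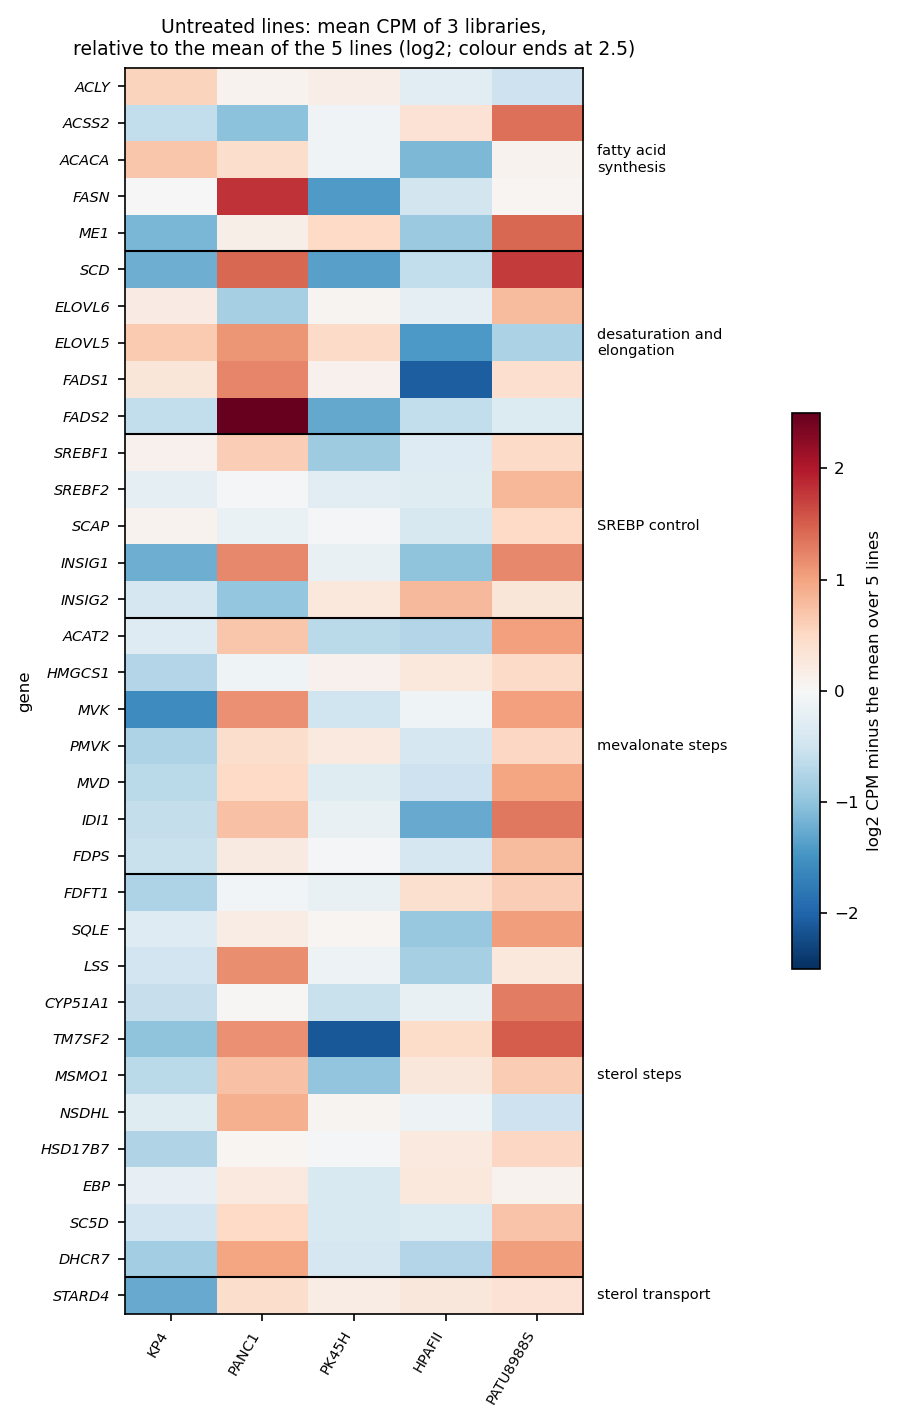
Mean log2 CPM of the 34 members (rows) in each untreated line (columns, 3 libraries each), relative to the mean of the 5 lines. SCD is high in PATU8988S and PANC1, with means of 418 and 335 CPM, and FADS1 is lowest in HPAFII, at 20.3 CPM.

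The order of SCD over the 17 groups ran from 33.3 CPM (KP4 with mCherry) to 418 CPM (untreated PATU8988S), with untreated PANC1 second at 335 ± 50 CPM (SD, n = 3) and PK45H with OVOL2 next at 138 ± 10 CPM. PATU8988S and untreated PANC1 did not overlap, with 387 CPM as the lowest library of the one and 368 CPM as the highest of the other. Below 138 CPM the groups formed a run from 92.4 ± 29 CPM (KP4 with OVOL2 and M2rtTA) down, in which neighbours overlapped except between the means of 71.4 and 60.6 CPM and of 43.8 and 35.04 CPM. The 4 transduced PANC1 groups sat at 56.4 to 74.6 CPM in this run. The 5 genes whose log2 levels over the 17 group means were most like those of SCD, among 15230 genes, were DHCR7 (Pearson r = 0.899), SLC29A2 (0.854), OSBPL10 (0.844), INSIG1 (0.838) and C1orf198 (0.831). These 17 points include the 5 PANC1 groups whose SCD levels chose the list, and groups of a line share its cells, so the values of r are a description.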

How the data were processed

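The deposited table holds whole-number counts per gene symbol, made by the authors from PLATE-seq libraries. The submitters' processing notes name kallisto 0.44.0 and GRCh38 without their role, and other steps are not given in the sources used here. Each of the 51 columns was matched to a sample by its label. No pair of replicates held identical counts (0 of 51 pairs).

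Counts were tested with edgeR 4.0.16 (limma 3.58.1, R 4.3.3): TMM scaling, filterByExpr by group, a quasi-likelihood F-test (two-sided), Benjamini-Hochberg adjustment over all genes tested and a threshold of 0.05. Each transduced line was fitted on its 15 libraries, means and differences over 3 lines on 45, and untreated lines on 15. Standard errors are the log2 fold change divided by the square root of F. Members were found by symbol, and likeness to SCD used log2(CPM + 1). Scripts were checked on simulated data. Depth ran from 1165399 to 7490556 counts.

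The members and all gene lists were chosen with earlier results of these data known. Values are given for all libraries for 7 genes (SCD, FASN, INSIG1, SREBF1, SREBF2, HMGCS1, SQLE), for up to 3 members of smallest p per direction in each tested comparison, for members called in all 3 lines of an arm, and otherwise by range. Other lipid genes are named if called in all 3 lines of an arm or among the 3 of smallest p in their list, of which some are named here. DHCR7, FADS2 and a few further members were named after their values were seen. Alternatives tried were RLE scaling, no or a stricter filter (mean count of 10), a replicate block, equal depth, robust dispersion, smaller or larger fits, DESeq2 1.42.0 and each library left out. RefSeq promoters (GRCh38.p14) matched 30 of 34 members and GENCODE 29 positions all 34.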

Additional observations from a re-analysis of the deposited data

Results flagged for a closer look

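For 5 members the effect of OVOL2 differed between KP4, PANC1 and PK45H in edgeR's test of that difference. Among all genes tested, 2.74% passed without M2rtTA and 7.56% with it. For SCD the adjusted p was 5.8e-05 without M2rtTA (log2 differences of 1.31, -0.39 and 0.91, in the order of the lines above). With M2rtTA it was 5.34e-06 (1.41, -0.20 and -0.32). The transduced PANC1 libraries are among those whose SCD level prompted the list, so for SCD these values are a description without a test. Without M2rtTA, SREBF1 passed (adjusted p = 0.0242) with -0.13, -0.32 and 0.82, and TM7SF2 passed (0.0345) with 0.17, -1.38 and 0.05. With M2rtTA, ACLY passed (0.0278) with -0.38, 0.35 and -0.16, HMGCS1 (0.0366) with 1.37, 0.10 and 1.19, and TM7SF2 (0.019) with 0.70, 0.27 and 1.83. When 1 library was left out, SREBF1 lost its call in 6 of 18 fits, TM7SF2 in 8 and 2, ACLY in 11 and HMGCS1 in 6.

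In PK45H, M2rtTA changed the effect of OVOL2 on SCD (adjusted p = 0.0228) and on TM7SF2 (adjusted p = 0.0369). SCD with OVOL2 had a mean of 138 CPM without M2rtTA and 35.04 CPM with it, and 72.2 and 43.8 CPM with mCherry.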

How the results depend on the processing

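Of 84 calls of single members, 77 have a direction, and none of these changed it under the 7 to 9 alternatives run for each or in the fits that left out 1 library. The other 7 are tests between lines, which have none. Over all 84, the call was lost in 211 of 1101 such fits, and 38 calls were lost neither in them nor under any alternative. Of the 84, RLE scaling lost 3, testing every counted gene 21, a minimum mean count of 10 lost 0, the robust dispersion 3, DESeq2 4, 1 fit of all 51 libraries 9, equal depth of 1165399 counts 38 of 83, and fits of only the groups compared 24 of 67. Counts at equal depth or in smaller fits rest on fewer reads or libraries. The cause of the other losses was not tested.

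Members called for OVOL2 against mCherry in KP4 numbered 5, and 3 with no filter, 1 at equal depth and 2 in a fit of only the groups compared. With M2rtTA in KP4 they numbered 8, and 5, 4 and 5 under these 3 settings. In PANC1 there was 1, and 2 with no filter, 2 with a mean count of at least 10, 0 at equal depth, 0 in the smaller fit, 4 with DESeq2 and 2 in 1 fit of all libraries. With M2rtTA in PANC1 there were 7, and 4 with no filter, 4 at equal depth and 3 in the smaller fit. In PK45H there were 4, and 2 at equal depth, 2 in the smaller fit and 7 with DESeq2. The M2rtTA change of the OVOL2 effect was called for 0 members in PANC1, but for 2 with DESeq2 and 1 in 1 fit of all libraries, and for 2 in PK45H, but for 1 with no filter, 0 at equal depth and 1 in the smaller fit. Differences between lines were called for 3 members, and for 1 with no filter, 1 at equal depth and 1 in the smaller fit, and with M2rtTA for 4, and for 2, 1 and 2. The mean over lines at equal depth gave 7 in place of 13 and, with M2rtTA, 10 in place of 16.

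Calls in the fits that left out 1 library ranged from 1 to 4 for KP4, from 0 to 1 for PANC1 and from 1 to 3 for PK45H, and with M2rtTA from 5 to 7, 3 to 5 and 4 to 5. It gave 0 to 2 for the M2rtTA change in PK45H, 11 to 14 and 12 to 16 for the means over lines, 1 to 3 and 2 to 5 for the differences between lines, and 13 to 18 for the untreated lines. The comparisons of mCherry with untreated cells, of mCherry with and without M2rtTA, and the M2rtTA change in KP4 and PANC1 gave 0 in each such fit.

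Replicate numbers did not pair the groups: of 90 correlations of same-numbered libraries, 5 were over 0.1 (range -0.209 to 0.18). With the replicate number as a block, 11 of the 84 calls were lost. The block gave 3 calls in place of 5 in KP4, 2 in place of 1 in PANC1, 2 in place of 4 in PK45H and 1 in place of 2 for the M2rtTA change in PK45H.

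The count of 19 members without overlap in PANC1 was 18 with RLE scaling, 19 with library totals alone and 20 to 22 without 1 untreated library, where the count could only stay or rise. These alternatives were chosen after seeing the data.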
